A study of Mus musculus with 28 samples.

Results

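Tail pNSCs, peripheral neural stem cell lines grown from the tails of newborn mice, were compared with cells of the same tissue, labelled Tail and called tail cells here, to describe which gene programmes were gained and which were lost. The comparison was taken by label and not by any measured value: 4 of the 28 samples of the series, 2 of tail pNSCs and 2 of tail cells, in which polyA-selected RNA was sequenced in bulk. The tail pNSCs came from mice of the Nes-GFP line, which carries GFP under the regulatory elements of *Nestin*. Tails of mice at postnatal day 1 to 5 were minced and dissociated with trypsin, GFP+ cells were sorted, and these were kept for 3 weeks on gelatin in serum-free NSC medium that held EGF and bFGF at 10 ng/mL each, after which single clusters were picked and expanded. A line grown in this way comes from a small share of the starting cells, and how many animals stand behind it is not given. For tail cells the labels give the same age of tail and the same dissociation, and they name no reporter, sort or time in culture. C57BL/6 is given as the strain of both groups in the labels, whereas the study's methods give CD1 or CD1 and C3H mixtures for its wild-type mice, with which its transgenic mice were crossed, so that the background is uncertain. The 2 samples of each group are treated as replicates, and p-values measure the spread between these samples, which may be technical.

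Neural stem cells are the dividing cells of the nervous system that give rise to neurons, astrocytes and oligodendrocytes. In culture they grow under EGF and FGF, and they are recognised by transcription factors of the SoxB1, Olig and Pax families together with the intermediate filament Nestin. The tail of a newborn mouse holds skin with growing hair follicles, a column of vertebral cartilage and bone, tendon, muscle, vessels, blood cells and nerves, so that its RNA is a mixture of many cell types. In such bulk samples, fewer cells of a type and less RNA per cell cannot be told apart.

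The samples held 17843898 and 20350715 counts for tail pNSCs and 19766705 and 17246664 for tail cells. Levels are given in cpm, counts divided by the library total as scaled by TMM, for replicate 1 and replicate 2 in that order. In a library 3 counts, the limit above which a gene was taken as detected, stand for 0.144 to 0.193 cpm. Fold changes are log2 values of tail pNSCs over tail cells from edgeR's quasi-likelihood test, and a value in parentheses after a gene is this log2 fold change with its standard error (SE). This SE was taken as the size of the log2 fold change over the square root of the test's F. Where a group has only a few counts, it is smaller than counting error and is no measure of precision. *Col2a1*, with 3 counts in each tail pNSC sample and an SE of 0.0515, is an example. A gene was called higher or lower at a Benjamini-Hochberg adjusted p under 0.05 and a log2 change of at least 1 in size, and "rose" and "fell" are used for such genes only. The replicates lay close together, with squared differences of 2.25 times counting error in tail pNSCs and 1.68 times in tail cells and a biological coefficient of variation of 0.0258 over all groups. For the largest changes the adjusted p is smaller than can be represented, and the SE is given in its place. Where a group had no counts at all, its gene is given as at least so many fold apart, against 3 counts in each library. With 1 to 3 counts in a group, the ratio is given with a 95% interval that covers counting error only. Such bounds and ratios are on the linear scale.

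The labels were first set against marker genes. Of 15 neural stem cell marker genes, 11 were higher in tail pNSCs, and together they took 0.956% and 0.945% of the counts of the tail pNSC samples and 0.0175% and 0.0175% of those of the tail cell samples. *Prom1*, which encodes the surface protein CD133, and *Fut4*, which makes the SSEA1 epitope, fell, with log2 fold changes of -4.57 (SE 0.217) and -4.57 (SE 0.391). *Msi1*, an RNA-binding protein of neural precursors, had 45.3 and 48.4 cpm in the tail pNSC samples and 28.2 and 25.8 cpm in the tail cell samples, a log2 fold change of 0.79 (SE 0.0745) that did not reach the fold limit. *Nr2e1*, the gene of the nuclear receptor TLX of forebrain stem cells, had no counts in any of the 4 samples, against 39.01 and 37.1 cpm in brain NSCs of the same experiment. Several markers of the tissue were absent or nearly so in tail pNSCs, while others fell but were still detected. *Krt5* and *Krt14* of keratinocytes, *Matn1* of cartilage, *Tnmd* of tendon, *Ptprc* of leukocytes and *Hba-a1* of red cells had no counts in either sample, and *Col1a2* of fibroblasts had a single count in replicate 2. *Col1a1*, also of fibroblasts, had 2.17 and 1.63 cpm in tail pNSCs, against 36518 and 35586 cpm in tail cells. *Myh8* of muscle had 15.998 and 14.04 cpm in tail pNSCs, against 98.2 and 92.9 cpm in tail cells. *Pdgfra*, which fibroblasts also make, was still detected in tail pNSCs as well. The pluripotency genes *Pou5f1* and *Zfp42* had no counts in either group, and *Nanog* stood at 0.488 and 0.913 cpm in the tail pNSC samples and 0.0564 and 0.321 cpm in the tail cell samples, close to the detection limit. *Esrrb*, an orphan nuclear receptor on the same list, rose to 5.69 and 5.77 cpm from 0.621 and 0.771 cpm (3.04, SE 0.290).

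Of 16948 genes tested, 7916 (46.7%) were called, of which 2389 (14.1%) were higher and 5527 (32.6%) lower in tail pNSCs. The counts for the programmes below are to be read against these shares. Scaling decides part of this split: with each sample centred on the median of its genes in place of TMM, which shifted the median change by 0.55 on the log2 scale, 4842 were higher and 4678 lower, so that 50.86% of the called genes were higher in place of 30.18%. Genes that fell also did so by more. A change of at least 16-fold was seen in 385 genes that rose and 3112 that fell, and one of at least 1024-fold in 21 and 621. Of the genes that fell, 1282 had no counts in either tail pNSC sample, whereas 58 of those that rose had none in tail cells. More genes were above 3 counts in tail cells, 16613 and 16425 per sample, than in tail pNSCs, 13935 and 14064. The groups of samples did not overlap for 15163 genes (89.5% of those tested). Without the fold limit 14042 were called.

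**Figure D1:**
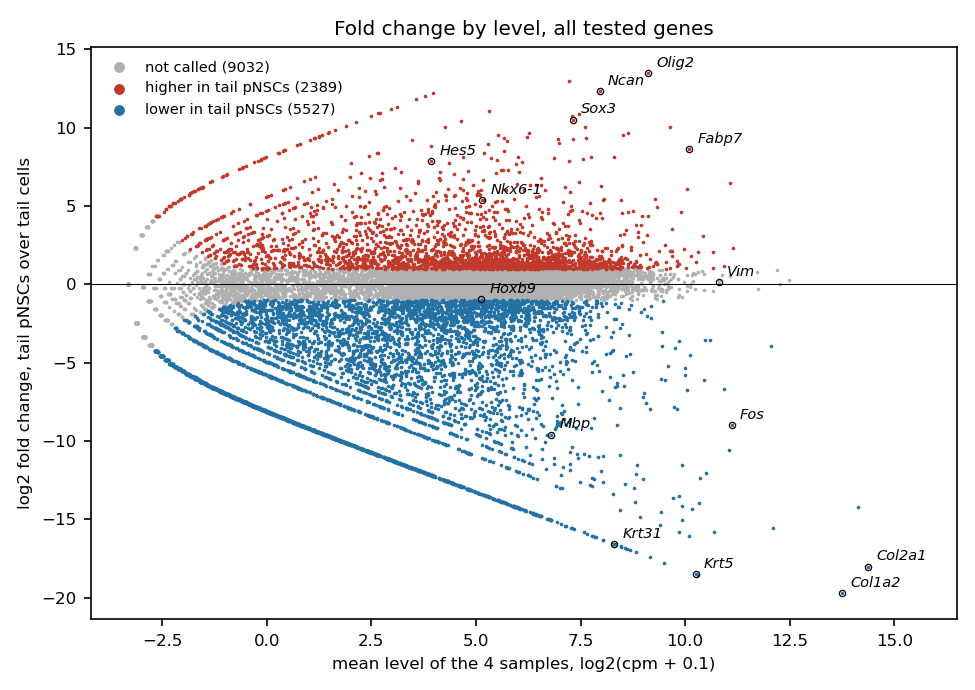
Log2 fold change of tail pNSCs over tail cells (vertical axis) against the mean level of the 4 samples as log2 of cpm with 0.1 added (horizontal axis) for the 16948 tested genes, with the 2389 called higher in red, the 5527 called lower in blue, the others in grey, and some genes named. The blue points reach much further from 0 than the red ones, down to the collagen and keratin genes at the lower right.

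The most abundant transcripts of the groups were of different kinds. The 10 leading genes of tail cells took 13.14% and 12.97% of the counts, against 4.171% and 4.276% for those of tail pNSCs. In tail cells they were *Col2a1*, *Col1a1*, *Col1a2*, *Col3a1*, *Sparc*, *mt-Co1*, *Eef1a1*, *Fos*, *Col11a2* and *Col11a1*, so that 6 of the 10 encode collagen chains and *Sparc* a collagen-binding protein. In tail pNSCs they were the mitochondrial genes *mt-Co1*, *mt-Cytb* and *mt-Nd1*, the elongation factors *Eef1a1* and *Eef2*, *Ckb*, *Scd2*, *Hsp90ab1*, *Actb* and *Tnc*. *Ckb*, the creatine kinase of brain, is the member of these with the largest change, from 49.03 and 47.1 to 4227 and 4324 cpm, with no overlap and a log2 fold change of 6.47 (SE 0.0346). *Scd2*, a fatty acid desaturase of brain, went from 747 and 759 to 3718 and 3789.6 cpm (2.32, SE 0.0261).

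Several transcription factors of neural progenitors rose, *Olig* and *Sox* genes among them. The largest rise of any gene with at least 50 cpm in its higher group was that of *Olig2*, a bHLH factor of the ventral neural tube and of oligodendrocyte precursors (chromosome 16, 91225457 to 91228677 in GRCm38). It had 1099.6 and 1130.2 cpm in the tail pNSC samples and 0.113 and 0.0643 cpm in the tail cell samples, a ratio of 12380-fold (95% interval 4235 to 60020). Its neighbour *Olig1* had 1555 and 1636 cpm in the tail pNSC samples and 1.47 and 1.54 cpm in the tail cell samples, also with no overlap (10.05, SE 0.0592). *Sox3*, a SoxB1 factor that keeps progenitors undifferentiated, went from 0.282 and 0.129 to 313 and 325 cpm (10.52, SE 0.105). Of 10 bHLH genes 7 were higher and 3 lower, the largest fall being that of *Atoh1*, a factor of Merkel cells and hair cells (at least 10.3-fold lower). Of 17 *Sox* genes, 8 were higher and 5 lower. The rises covered the SoxB1 genes *Sox1*, *Sox2* and *Sox3*, the SoxC genes *Sox4*, *Sox11* and *Sox12*, and *Sox6* and *Sox8*. Those that fell were *Sox7*, *Sox17* and *Sox18*, the SoxF genes of endothelium, *Sox10* of Schwann and neural crest cells and *Sox15*. *Sox17* and *Sox18* had no counts in tail pNSCs and were at least 152-fold and at least 185-fold lower. *Sox9* and *Sox5*, which serve both cartilage and glial precursors, had levels of one order in both groups: *Sox9* 148 and 148 cpm in tail pNSCs and 274 and 278 cpm in tail cells (-0.90, SE 0.0361), and *Sox5* 42.4 and 42.2 against 46.3 and 45.5 cpm (-0.12, 95% interval -0.25 to 0.01).

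The sequences upstream of the gene with the largest rise, of the gene with the largest fall and of a pair of hair keratin genes that fell together are shown, since the report returns to all 4. Each runs from 250 bases before to 50 bases after the gene's start in RefSeq on GRCm38.p6, with CG dinucleotides and the letters TATAAA in capitals. *Olig2*, on the plus strand at chr16:91225300-91225599, holds 25 CG dinucleotides.
Olig2: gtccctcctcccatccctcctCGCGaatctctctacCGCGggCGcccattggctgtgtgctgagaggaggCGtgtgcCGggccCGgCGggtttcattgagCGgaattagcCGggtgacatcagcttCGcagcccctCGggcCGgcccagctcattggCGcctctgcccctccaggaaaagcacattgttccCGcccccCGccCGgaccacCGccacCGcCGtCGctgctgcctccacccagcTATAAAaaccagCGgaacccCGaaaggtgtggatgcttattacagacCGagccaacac
*Col1a2*, a chain of type I collagen, on the plus strand at chr6:4505368-4505667, holds 13.
Col1a2: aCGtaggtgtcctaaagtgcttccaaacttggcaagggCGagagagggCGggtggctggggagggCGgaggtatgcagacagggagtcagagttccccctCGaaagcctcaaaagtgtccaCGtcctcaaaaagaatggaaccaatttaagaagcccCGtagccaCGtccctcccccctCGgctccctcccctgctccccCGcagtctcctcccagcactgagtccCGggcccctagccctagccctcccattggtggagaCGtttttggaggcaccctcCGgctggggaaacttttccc
*Krt25*, a keratin of the inner root sheath of hair, on the minus strand at chr11:99322902-99323201, holds 6.
Krt25: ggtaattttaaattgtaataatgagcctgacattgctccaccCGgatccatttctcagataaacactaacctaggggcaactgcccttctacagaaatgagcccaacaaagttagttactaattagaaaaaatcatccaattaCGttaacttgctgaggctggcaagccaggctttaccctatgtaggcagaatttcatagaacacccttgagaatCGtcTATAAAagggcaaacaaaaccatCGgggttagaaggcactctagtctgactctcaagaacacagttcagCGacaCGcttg
*Krt31*, a keratin of the hair cortex, on the minus strand at chr11:100050502-100050801, holds 2.
Krt31: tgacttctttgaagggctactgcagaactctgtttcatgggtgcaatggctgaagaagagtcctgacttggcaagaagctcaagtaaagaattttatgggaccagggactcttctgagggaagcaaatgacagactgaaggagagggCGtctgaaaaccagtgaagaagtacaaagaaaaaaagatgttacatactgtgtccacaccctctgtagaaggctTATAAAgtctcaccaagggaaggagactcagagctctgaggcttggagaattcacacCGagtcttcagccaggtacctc
Over the 32851 promoters of the table the quartiles of this number were 3, 7 and 20, so that *Olig2* lies above the upper and *Krt31* below the lower. The letters TATAAA begin 30 bases before the start in *Krt25*, 29 in *Krt31* and 8 in *Olig2*, and are not in the *Col1a2* window on either strand. They were found on either strand in 13.62% of all promoters. These are descriptions of letters and not of bound factors. They hold for the RefSeq start only. GENCODE M21, which gives the gene coordinates in this report, places the starts of *Olig2* and *Col1a2* further upstream.

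Patterning genes, which give neural progenitors their position in the neural tube, were followed in 2 lists. Of 18 tested genes of the ventral and dorsal neural tube, 8 were higher and 6 lower. *Nkx6-1*, a homeodomain factor of the ventral spinal cord and hindbrain, had 68.1 and 70.5 cpm in the tail pNSC samples and 1.69 and 1.61 cpm in the tail cell samples (5.39, SE 0.138), with no counts in brain NSCs. *Dbx2* of the intermediate tube went from 0.226 and 0.129 to 41.9 and 39.1 cpm (7.76, SE 0.209), and *Gbx2*, a factor of the anterior hindbrain, from 0.113 and 0 to 8.24 and 7.11 cpm, a ratio of 127-fold (95% interval 34.9 to 1055). Those that fell included the dorsal genes *Msx1* (-3.72, SE 0.139), *Msx2* (at least 409.7-fold lower) and *Pax3* (at least 19.99-fold lower), which are also used in skin, limb and muscle. Of 15 tested genes of the forebrain and midbrain 4 were higher and 4 lower. *Otx2* and *Six3* had no counts in any of the 4 samples. *Zic1* had none in tail pNSCs and 11.3 and 9.90 cpm in tail cells, against 76.9 and 72.8 cpm in brain NSCs. Those that rose included *Zic2* (6.79, SE 0.211), *Emx2* (4.91, SE 0.415) and *En2*, of which *En2* stayed at 0.759 and 0.192 cpm and was not called without tail pNSC replicate 1 (1.04) or tail cell replicate 1 (1.78). *Dlx1* (-4.69, SE 0.343), *Dlx2* (-6.03, SE 0.318) and *En1* (-3.57, SE 0.199), which skin and limb also use, fell.

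Radial glia are the neural stem cells of the developing brain, and astrocytes share much of their programme. Of 23 such genes 12 were higher and 7 lower. *Fabp7*, the brain fatty acid binding protein, went from 5.02 and 5.98 to 2196 and 2146 cpm (8.63, SE 0.0487). *Slc1a3* and *Slc1a2*, the glutamate transporters GLAST and GLT-1, went from 26.3 and 29.3 to 1191 and 1235 cpm (5.45, SE 0.0401) and from 1.30 and 1.09 to 51.1 and 47.1 cpm (5.34, SE 0.117). *Aldoc*, a glycolytic enzyme of astrocytes (5.39, SE 0.0459), and *Mlc1*, a membrane protein of astrocyte end feet (9.35, SE 0.0861), rose as well. *Aqp4*, a water channel, had 0.488 and 0.481 cpm in tail pNSCs and 0 and 0.0643 cpm in tail cells and was called higher (ratio 16.1-fold, 95% interval 2.56 to 669.5). *Gfap* had 0.108 and 0.144 cpm in tail pNSCs and 0.395 and 0.771 cpm in tail cells and was called lower (-2.11, SE 0.737), but not without tail cell replicate 2 (-1.58) or by glmTreat, and *S100b* (-2.99, SE 0.108) and *Slc7a10*, an amino acid transporter (at least 14.5-fold), were lower. *Gja1*, the gap junction gene connexin 43 (-2.51, SE 0.0364), and *Hopx* (-2.28, SE 0.0626) were also lower than in the tail. *Gap43*, a protein of growing axons that glia can also make, fell from 35.997 and 31.8 to 11.1 and 11.6 cpm (-1.58, SE 0.0926).

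The matrix of the nervous system is built on proteoglycans in place of collagen fibres. Of 11 tested genes of the perineuronal matrix 7 rose and 4 fell. *Ncan*, which encodes the brain proteoglycan neurocan (chromosome 8, 70093085 to 70120873), had 498 and 496 cpm in the tail pNSC samples and 0.169 and 0 cpm in the tail cell samples, a ratio of 5514-fold (95% interval 1886 to 26740). *Bcan*, brevican, went from 0.959 and 0.964 to 794 and 805 cpm (9.69, SE 0.0711), and *Ptprz1*, the receptor phosphatase whose ectodomain is phosphacan, from 29.7 and 30.6 to 2092 and 2092 cpm (6.12, SE 0.0366). *Tnc*, tenascin C, was abundant in both groups and higher in tail pNSCs (2.08, SE 0.0299). Other members of the list went the other way, genes of cartilage among them. *Acan*, aggrecan, fell from 2596 and 2571 to 0.271 and 0.0481 cpm (-13.98, SE 0.0810), *Hapln1*, its link protein, from 946 and 978 to 0.0542 and 0 cpm (ratio 37720-fold, 95% interval 6769 to 1490000) and *Vcan*, versican, from 606 and 602 to 88.3 and 88.9 cpm (-2.77, SE 0.0375).

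**Figure D2:**
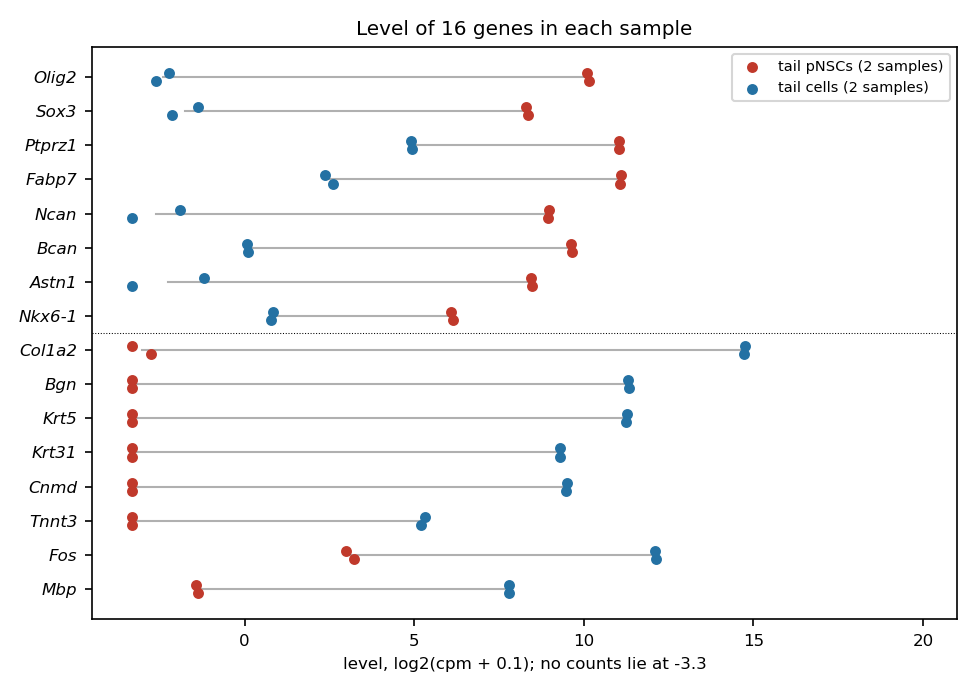
Level of 16 genes in each of the 4 samples (points, red for tail pNSCs and blue for tail cells, horizontal axis as log2 of cpm with 0.1 added; bars join the group means). The 8 genes on top rose and the 8 below fell, and in each the groups lie apart, with the samples of a group almost on top of each other except where a group is at or near 0 counts.

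Genes of oligodendrocyte precursors were mixed, with 9 of 16 higher and 7 lower. Next to *Olig1*, *Olig2*, *Ncan* and *Bcan*, *Lhfpl3* (5.02, SE 0.290), *Tnr* (5.77, SE 0.284) and *Cspg5* (5.61, SE 0.0733) rose. *Nkx2-2*, a factor of the ventral tube and of these precursors, had 2.66 and 2.31 cpm and no counts in tail cells, and was at least 13.7-fold higher. The defining surface receptor *Pdgfra* fell from 192 and 193 to 7.97 and 7.79 cpm (-4.61, SE 0.0616), and *Cspg4*, NG2, from 412 and 407 to 37.7 and 36.4 cpm (-3.47, SE 0.0426). Both are also made by fibroblasts and mural cells of the tail. *Matn4*, a matrilin of these precursors and of cartilage, had 131 and 130.0 cpm in tail cells and none in tail pNSCs (at least 849.5-fold lower). *Sox10* was at 0.108 and 0.0481 cpm in tail pNSCs.

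Of 22 tested neuronal genes 14 were higher. Most of these rose to a low level. *Elavl4*, an RNA-binding protein of neurons, had 30.3 and 29.99 cpm in the tail pNSC samples and 0.0564 and 0.0643 cpm in the tail cell samples (ratio 501-fold, 95% interval 138 to 4143), *Ina*, alpha-internexin, 23.8 and 21.4 cpm in the tail pNSC samples and 0.564 and 0.193 cpm in the tail cell samples (5.83, SE 0.231), and *Syn1*, a synaptic vesicle protein, 15.9 and 13.8 cpm in the tail pNSC samples and 0.790 and 0.771 cpm in the tail cell samples (4.23, SE 0.217). *Map2*, the microtubule protein of dendrites, was the abundant exception, at 1240.2 and 1252 cpm against 38.4 and 41.6 cpm (4.96, SE 0.0389). Others were not higher. *Dcx*, a microtubule protein of newborn neurons, had 0.759 and 0.144 cpm in tail pNSCs and 0.734 and 0.707 cpm in tail cells (without tail pNSC replicate 1 its value was -2.27, and without replicate 2 it was 0.0762), *Tubb3* 8.73 and 10.3 and 17.2 and 17.8 cpm (-0.87, SE 0.123), and *Stmn2* was absent from tail pNSCs against 14.2 and 15.1 cpm (at least 95.5-fold lower). Receptors of synaptic signalling were among the 15 largest rises. *Grm5*, a metabotropic glutamate receptor, had 295 and 304 cpm in the tail pNSC samples and 0 and 0.0643 cpm in the tail cell samples (ratio 9982-fold, 95% interval 1791 to 394300), and *Gabrg1*, a GABA receptor subunit, 81.7 and 75.4 cpm in the tail pNSC samples and 0.0564 and 0 cpm in the tail cell samples (ratio 2608-fold, 95% interval 468 to 103000). Others of the 15 were *Astn1*, *Rfx4*, *Brinp2*, *Rtn1*, *Lmo3* and *Slc25a18*. *Rfx4*, a factor of the neural tube, went from 0.451 and 0.257 to 385 and 393 cpm (10.05, SE 0.0950), and *Rtn1*, a reticulon of neuroendocrine cells, from 1.24 and 0.707 to 707 and 751 cpm (9.51, SE 0.0759).

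Of 22 tested neural cell adhesion genes 14 were higher and none lower. Without the fold limit 4 were lower, 2 were lower without tail pNSC replicate 1, and 1 each without tail cell replicate 2, without the filter and with all 28 samples. *Astn1*, astrotactin, which guides neurons along glia, rose most, from 0.339 and 0 to 347 and 355 cpm (10.88, SE 0.102). The membrane proteolipids *Gpm6a* (6.28, SE 0.0580) and *Gpm6b* (4.38, SE 0.0387) rose as well. Members such as *Ncam1* (1.37, SE 0.0442) and *Lsamp* (1.46, SE 0.0630), which muscle and nerve also express, had smaller changes. Among 20 tested RNA-binding genes of splicing and translation 10 rose and 6 fell. *Nova1* (4.09, SE 0.0787), *Nova2* (3.72, SE 0.101) and *Celf2* (2.67, SE 0.0455), splicing regulators of neural cells, were higher, while *Esrp1*, the regulator of epithelial splicing, was at least 1225-fold lower, from 186 and 190.4 cpm to none.

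Signalling genes tied to the growth factors of the medium were mostly higher, 11 of 20 with 4 lower. *Egfr* itself went from 129 and 135 to 693 and 700.1 cpm (2.40, SE 0.0358). The ETS factors *Etv5* and *Etv1*, which FGF signalling induces, went from 27.1 and 24.8 to 478 and 507 cpm (4.24, SE 0.0467) and from 14.5 and 13.3 to 212 and 215 cpm (3.94, SE 0.0563). The feedback inhibitors *Spry4* (2.63, SE 0.0451), *Spry2* (1.75, SE 0.0422), *Dusp6* (2.27, SE 0.0372) and *Spred1* (1.29, SE 0.0371) rose together. The receptors that fell were *Erbb2* (-1.504, SE 0.0511), *Erbb3* (ratio 4194-fold, 95% interval 752 to 165700), *Fgfr2* (-3.51, SE 0.0456) and *Fgfr4* (-6.61, SE 0.298).

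In the Notch pathway 3 receptors lay near 0 change, and most ligands and targets moved. *Notch1*, *Notch2* and *Notch3* had log2 fold changes of -0.14, -0.03 and -0.08, with 95% intervals of -0.21 to -0.08, -0.10 to 0.04 and -0.15 to -0.01, and all 3 turned positive when scaled by library size only or centred on the median. *Notch4*, the endothelial receptor, fell (-4.65, SE 0.125). Of the ligands, *Dll1* (1.504, SE 0.0603) and *Dll3* (4.20, SE 0.233) rose, whereas *Jag1* (-2.04, SE 0.0458), *Jag2* (-8.40, SE 0.104) and *Dll4* (-5.04, SE 0.156) fell. *Jag2* had 251 and 234 cpm in tail cells and 0.868 and 0.577 cpm in tail pNSCs. Of the targets, *Hes5*, the effector in neural progenitors, went from 0.169 and 0.0643 to 33.5 and 26.8 cpm (7.89, SE 0.246), while *Hes1* (-1.25, SE 0.0504), *Hey2* (-4.79, SE 0.210) and *Heyl* (at least 284-fold) were lower. In all 7 of 20 Notch genes rose and 8 fell.

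Cell cycle genes rose moderately. Of 21 genes of the S phase 13 were higher and none lower, and of 20 of the M phase 15 and none. Centred on the median, 20 of the S phase genes were higher. The largest rises were those of *Cdc6*, which licenses replication origins (1.72, SE 0.0861), and of the mitotic kinase *Plk1* (1.97, SE 0.0530). *Top2a* went from 347 and 361 to 899.7 and 891 cpm (1.34, SE 0.0319), and *Mki67* from 476 and 487 to 939 and 912 cpm, just under the fold limit (0.94, SE 0.0311). Tail cells thus held transcripts of dividing cells too. Among inhibitors of the cycle, *Cdkn1c*, p57, fell from 286 and 282 to 0.597 and 0.529 cpm (-8.97, SE 0.106), and *Cdkn2a*, the p16 and p19 locus, rose from 0.0564 and 0.321 to 52.2 and 50.9 cpm (8.11, SE 0.202). *Cdkn2a* had 33.4 and 31.02 cpm in brain NSCs. *Ccng1*, a target of p53, rose as well (3.14, SE 0.0394), with *Trp53* at 130.2 and 133 cpm in tail pNSCs and 119 and 124 cpm in tail cells. Of 24 genes of sterol and fatty acid synthesis 10 rose (20 when centred on the median) and *Scd1* was just past the limit (-1.04, SE 0.0295), where it was not called with upper-quartile scaling (-0.99), library size only (-0.84), median centring (-0.49), all 28 samples (-0.95) or glmTreat. *Hmgcs1* of the first steps of the mevalonate pathway (2.13, SE 0.0309) and *Nsdhl* (2.05, SE 0.0480) and *Dhcr7* (2.01, SE 0.0441) of its last steps led the rises of the sterol genes.

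The programmes lost were those of the tissues of the tail. All 23 tested keratinocyte genes, 20 of 21 genes of the cornified envelope and 22 of 23 genes of hair were lower. *Krt5* and *Krt14*, the keratins of the basal layer, had 2462 and 2419.8 and 1464 and 1423 cpm in tail cells and no counts in tail pNSCs, and were at least 15910-fold and at least 9408-fold lower. *Krt1* of the suprabasal layers was at least 4135-fold and *Sprr1a* of the cornified envelope at least 1068-fold lower. *Krt25* and *Krt31* of the hair follicle had 1153 and 1149 and 635 and 625 cpm in tail cells and none in tail pNSCs (at least 7501-fold and at least 4106-fold lower), and *Krt71* 0 and 0.0481 cpm. Keratins filled 11 of the 15 places among the largest falls of genes with at least 50 cpm, with *Krt15*, *Krt17*, *Krt27*, *Krt33a*, *Krt35* and *Krt87* next to those named, and the other 4 were *Col1a2*, *Bgn*, *Col2a1* and *Cnmd*. *Trp63*, the master factor of stratified epithelia, fell from 234 and 233 to 0 and 0.192 cpm (-11.07, SE 0.147). Counted by symbol, which was done after the values were seen, all 46 tested keratin genes were lower and 40 had no counts in tail pNSCs, and so were all 53 tested keratin-associated protein genes, 52 of them with none. *Lhx2*, a factor that hair follicle stem cells share with the brain, did not reach the fold limit, at 35.7 and 39.2 cpm against 72.9 and 66.7 cpm (-0.90, SE 0.0669), and the cornified envelope gene *Lor* was not lower (0.86, SE 0.142). Keratinocyte and hair genes together made up 2.1073% and 2.0899% of the counts of tail cells and 0.005% and 0.0053% of those of tail pNSCs.

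Fibrous and basement membrane matrix made up the largest part of the RNA lost. All 15 fibrillar and associated collagen genes and all 16 other collagen genes in the lists fell, and together they went from 13.669% and 13.446% of the counts of tail cells to 0.0341% and 0.0335% of those of tail pNSCs. *Col1a2* had 27646 and 27096 cpm in the tail cell samples and 0 and 0.0481 cpm in the tail pNSC samples, that is a single count, a ratio of 1075000-fold (95% interval 192900 to 42450000). *Col3a1*, type III collagen, had 8885 and 8651 cpm in the tail cell samples and 0.271 and 0.0961 cpm in the tail pNSC samples (-15.53, SE 0.0644), and *Col6a1*, a microfibril collagen, 1965 and 1911 cpm in the tail cell samples and 0.0542 and 0.144 cpm in the tail pNSC samples (-14.13, SE 0.0860). *Col17a1*, which anchors the epidermis to its basement membrane, was at least 3422-fold lower. The basement membrane chains *Col4a1* (-5.76, SE 0.0394) and *Col4a2* (-6.04, SE 0.0440) and the minor fibrillar chains *Col5a1* (-5.33, SE 0.0404) and *Col11a1* (-6.65, SE 0.0400) fell less, *Col4a2* to 19.8 and 21.2 cpm and *Col5a1* to 49.4 and 50.2 cpm. Of 30 other genes of mesenchymal matrix 26 fell. *Bgn*, the proteoglycan biglycan, had 2503 and 2601 cpm in tail cells and no counts in tail pNSCs (at least 16630-fold lower), *Fmod*, fibromodulin, a ratio of 72550-fold (95% interval 13020 to 2866000), and *Postn*, periostin, of 27070-fold (95% interval 7492 to 223500). *Fbln2*, a fibulin of developing brain and heart, went the other way, from 653 and 655 to 1763 and 1816 cpm (1.45, SE 0.0305). *Serpinh1*, the collagen chaperone, stood at 710.0 and 712 cpm against 1243 and 1252 cpm (-0.81, SE 0.0303). Matrix proteases and their inhibitors had 15 of 22 lower and 4 higher: *Mmp3* was at least 48.5-fold lower and *Mmp2* fell (-8.97, SE 0.0711), and *Mmp15* (3.24, SE 0.0374), *Timp4* (5.32, SE 0.0955), *Adam12* (2.53, SE 0.0412) and *Adam19* (1.68, SE 0.0566) rose.

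**Figure D3:**
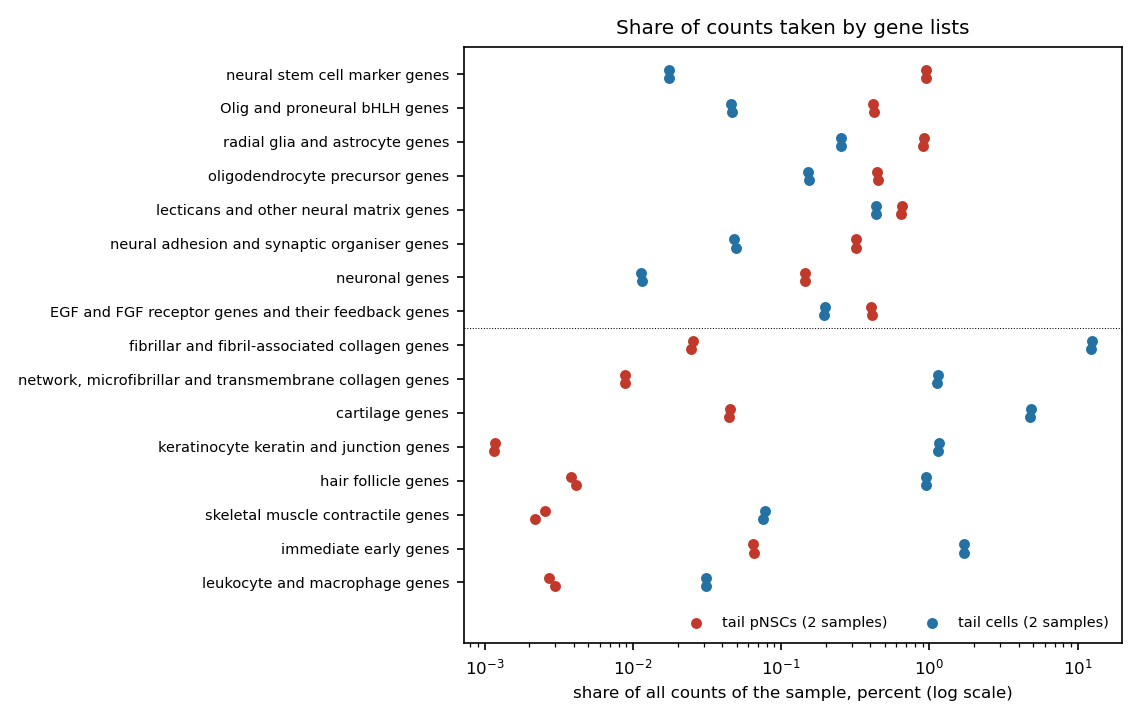
Share of all counts taken by each of 16 gene lists in the 4 samples (points, red for tail pNSCs, blue for tail cells, horizontal axis on a log scale in percent). The neural lists lie to the right in tail pNSCs and the tissue lists in tail cells, with the replicates of a group close together.

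Fibroblast genes were lower in 18 of 22 cases. *Pdgfrb* had 157 and 167 cpm in tail cells and no counts in tail pNSCs (at least 1054-fold lower), and *Dpt* was at least 527-fold lower. *Cd34* (ratio 10390-fold, 95% interval 1865 to 410500) and the mesenchymal factors *Twist1* (-5.97, SE 0.139) and *Snai2* (-7.17, SE 0.210) fell. The remaining 4 are also expressed by other cells. *Vim*, vimentin, stood at 1843 and 1892 cpm in the tail pNSC samples and 1694 and 1719 cpm in the tail cell samples (0.13, SE 0.0267), *Zeb2* at 87.4 and 87.6 against 101 and 99.7 cpm (-0.20, SE 0.0448), *Zeb1* rose (3.46, SE 0.0385), and *Tcf21* had no counts in any of the 4 samples.

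The skeleton of the tail was nearly absent from tail pNSCs. Of 19 cartilage genes 16 fell, taking 0.0449% and 0.0442% of the counts of the tail pNSC samples and 4.85% and 4.78% of those of the tail cell samples. *Col2a1*, type II collagen (chromosome 15, 97975602 to 98004695), had 42940.4 and 41931 cpm in the tail cell samples and 0.163 and 0.144 cpm in the tail pNSC samples (-18.02, SE 0.0515). *Cnmd*, chondromodulin, had 719 and 707 cpm in tail cells and no counts in tail pNSCs (at least 4647-fold lower), and *Comp* a ratio of 53010-fold (95% interval 9515 to 2094000). *Sox6* was the member that rose (2.03, SE 0.0418), and *Sox5* and *Sox9* were not called. Of 16 tested bone genes 15 fell, among them *Sp7*, the osteoblast factor (at least 141-fold lower), *Ibsp*, bone sialoprotein (at least 782-fold lower), and *Acp5* of osteoclasts (at least 127-fold lower). Of 13 tendon genes 12 fell, with *Tnmd* at least 1168-fold lower and *Scx* at -4.66 (SE 0.225), and *Tnc* rose.

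All 27 tested genes of the muscle sarcomere and of its metabolism fell. *Tnnt3*, fast troponin T, had 39.7 and 36.9 cpm in tail cells and no counts in tail pNSCs (at least 249.5-fold lower), and *Acta1*, skeletal actin, a ratio of 2034-fold (95% interval 696 to 9867). *Myh8*, perinatal myosin, kept 15.998 and 14.04 cpm against 98.2 and 92.9 cpm (-2.67, SE 0.0797). Of 17 myogenic genes 12 fell, with *Myod1* and *Myog* at least 10.5-fold and at least 27.7-fold lower from levels of a few cpm. *Chrna1*, the muscle acetylcholine receptor, was at least 39.6-fold lower. *Pax7*, which marks both muscle satellite cells and the dorsal neural tube, had 2.82 and 1.73 against 1.41 and 1.74 cpm (0.52, 95% interval -0.12 to 1.17). *Eya1* rose (1.53, SE 0.130). Vessel genes fell in 15 of 17 cases for mural cells and in 21 of 22 for endothelium. *Rgs5* of pericytes had a ratio of 6984-fold (95% interval 1933 to 57680), *Cdh5*, VE-cadherin, of 5152-fold (95% interval 1426 to 42550), and *Cldn5* was at least 362-fold lower. *Prox1*, a factor of lymphatic endothelium and of neural progenitors, was the endothelial list member that rose, from 6.32 and 8.36 to 42.6 and 41.2 cpm (2.52, SE 0.100).

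Genes of blood and immunity mostly fell, those of leukocytes from low levels. Of 29 leukocyte genes 26 were lower, and *Ptprc*, CD45, and *Lyz2* of macrophages had 11.5 and 12.99 and 43.2 and 42.3 cpm in tail cells and no counts in tail pNSCs (at least 79.8-fold and at least 278-fold lower). *Cd163*, a scavenger receptor of macrophages, was the member that rose, to 12.7 and 12.98 cpm (1.88, SE 0.155). The adult globins *Hba-a1* and *Hbb-bs* had 90.3 and 95.2 and 149 and 145 cpm in tail cells and were at least 605-fold and at least 959.8-fold lower. Antigen presentation was lower in 16 of 22 genes. *H2-D1* fell from 127 and 129.7 to 4.94 and 3.36 cpm (-4.96, SE 0.0723), *H2-K1* less (-2.16, SE 0.0612), and *B2m* was near the limit (-1.05, SE 0.0451), while *H2-Aa* of class II was at least 24.8-fold lower. Interferon genes were lower in 17 of 21 cases, with *Ifitm1* at least 136-fold lower and *Ifitm3* at -9.01 (SE 0.129). Fat cell genes fell in 13 of 14, led by *Cidea* (at least 156-fold lower) and *Fabp4* (ratio 3151-fold, 95% interval 872 to 26020).

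The nerve and pigment cells of the tail arise from the neural crest, a tissue with its own stem cells, and their genes were lower in tail pNSCs. Of 21 Schwann cell genes 17 fell and 2 rose. *Mbp*, myelin basic protein, fell from 223 and 221 to 0.271 and 0.288 cpm (-9.60, SE 0.123) and *Erbb3*, the neuregulin receptor, to 0.0542 and 0 cpm. *Gldn*, gliomedin of the nodes of Ranvier, was at least 160.4-fold lower. *Pou3f2*, which is also a factor of cortical progenitors, rose from 0.677 and 0.643 to 48.3 and 48.02 cpm (6.17, SE 0.161), and so did *Gas7* (1.74, SE 0.0378). Of 19 tested neural crest and melanocyte genes 17 fell. *Foxd3*, *Tfap2b* and *Dct* had 5.30 and 5.72, 67.6 and 64.99 and 76.4 and 73.8 cpm in tail cells and were absent from tail pNSCs (at least 35.9-fold, at least 432-fold and at least 489-fold lower), as was *Tfap2c* (at least 503-fold). *Ngfr*, the p75 receptor, had 27.03 and 24.3 cpm in the tail cell samples and 0.325 and 0.288 cpm in the tail pNSC samples (-6.36, SE 0.245). *Ednrb*, an endothelin receptor of crest cells and of astrocytes, was the member that rose, from 41.5 and 40.4 to 259 and 260.2 cpm (2.66, SE 0.0443). Of 11 tested sensory neuron genes 6 fell, with *Ret*, the GDNF receptor, at least 131-fold lower, and *Calca*, the calcitonin and CGRP gene, rose to 15.5 and 17.3 cpm from 0.113 and 0.0643 cpm (ratio 183-fold, 95% interval 62.2 to 888), with no counts in brain NSCs. Lung pNSCs held more of *Calca*, 140.6 and 138.7 cpm, and it rose there against lung cells too (9.08, SE 0.150).

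The immediate-early genes, which cells switch on within minutes of a stimulus, were lower without exception in all 19 cases. They took 0.0646% and 0.0654% of the counts of the tail pNSC samples and 1.71% and 1.72% of those of the tail cell samples. *Fos* had 4419 and 4433 cpm in the tail cell samples and 7.81 and 9.33 cpm in the tail pNSC samples (-9.005, SE 0.0469), *Fosb* 2608 and 2604 cpm in the tail cell samples and 0.325 and 0.625 cpm in the tail pNSC samples (-12.38, SE 0.0705) and *Junb* 1678 and 1702 cpm in the tail cell samples and 7.59 and 7.21 cpm in the tail pNSC samples (-7.84, SE 0.0525). The smallest changes were those of *Klf6* (-1.51, SE 0.0410) and *Jund* (-2.72, SE 0.0467). Dissociation of a tissue is known to induce these genes, and its part in the difference was not tested.

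Secreted signals of the TGF-beta, BMP and Wnt families were mostly lower, 28 of 35 and 28 of 40 genes, with 1 and 3 higher. Of the BMP ligands *Bmp4* (-8.94, SE 0.212) and *Bmp2* (ratio 862-fold, 95% interval 295 to 4183) fell to a few counts, *Gdf10* had a ratio of 5140-fold (95% interval 922 to 203100), while *Bmp7* fell less, with 50.8 and 53.7 cpm against 141 and 155 cpm (-1.497, SE 0.0469). Their nuclear targets *Id1* (-3.79, SE 0.0650) and *Id4* (-4.24, SE 0.106) and the inhibitor *Smad6* (-6.52, SE 0.154) fell, and *Bmpr1b* rose (2.08, SE 0.0855). *Wnt7a* and *Wnt7b*, the Wnt ligands of the neural tube, rose from 0.959 and 0.386 to 69.7 and 72.6 cpm (6.67, SE 0.139) and from 17.1 and 19.4 to 110.0 and 124 cpm (2.69, SE 0.0634), together with the receptor *Fzd3* (3.13, SE 0.0458). *Wnt10b* and the inhibitor *Dkk2* had no counts in tail pNSCs (at least 362-fold and at least 1026-fold lower). *Axin2*, the general target of the canonical pathway, had 53.9 and 53.7 against 69.004 and 68.3 cpm (-0.35, SE 0.0543), below the fold limit.

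The *Hox* genes give cells their position along the body axis, and part of those of the tail were still measured in tail pNSCs. Of 36 tested *Hox* genes 33 had a mean of at least 1 cpm in tail cells and 15 in tail pNSCs. Of these 15, the genes *Hoxa10*, *Hoxb8*, *Hoxb9*, *Hoxb13*, *Hoxd4*, *Hoxd8*, *Hoxd9* and *Hoxd10*, 8 in all, had no counts in brain NSCs. *Hoxd8* had 39.3 and 40.1 cpm in the tail pNSC samples and 84.9 and 83.96 cpm in the tail cell samples (-1.09, SE 0.0690), *Hoxb9* 25.4 and 22.7 cpm in the tail pNSC samples and 47.6 and 43.4 cpm in the tail cell samples (-0.92, SE 0.0881) and *Hoxd9* 18.98 and 20.1 cpm in the tail pNSC samples and 41.02 and 40.6 cpm in the tail cell samples (-1.06, SE 0.0949). *Hoxb13*, the most posterior gene of its cluster, had 9.33 and 8.41 cpm in the tail pNSC samples and 40.1 and 34.01 cpm in the tail cell samples (-2.07, SE 0.114), and no counts in lung pNSCs. *Hoxd4* was the closest to its tissue level (-0.38, 95% interval -0.82 to 0.06). The clusters behaved differently. From the *Hoxc* cluster nothing was left in tail pNSCs beyond single counts of *Hoxc10* and *Hoxc13*, although tail cells had 24.1 and 24.9 cpm of *Hoxc12* (at least 159.6-fold lower) and 82.9 and 77.7 cpm of *Hoxc13* (ratio 3158-fold, 95% interval 566 to 124800). Within *Hoxb*, *Hoxb6* was at least 136-fold lower, from 20.5 and 21.3 cpm. Within *Hoxa*, the anterior genes *Hoxa2*, *Hoxa3*, *Hoxa4* and *Hoxa5* were called higher, by 1.80, 1.80, 3.14 and 1.02 on the log2 scale. *Hoxa5* lay at the limit and was no longer called by the DESeq2 test (0.97), with its size factors (0.97), with the stricter filter (0.93), with only the 4 samples fitted (0.9998), by glmTreat, or without tail pNSC replicate 2 (0.98) or tail cell replicate 2 (0.89). The genes *Hoxa6* to *Hoxa13* fell, among them *Hoxa11*, which had 10.9 and 12.2 cpm in tail cells and no counts in tail pNSCs. Of the cofactors, *Meis1* (1.95, SE 0.0732), *Meis2* (2.43, SE 0.0749) and *Pbx3* (1.70, SE 0.0861) rose. Other positional factors of the tail mesoderm fell, 20 of 29 tested, including *T*, brachyury (-3.94, SE 0.184), *Tbx4* (at least 66.8-fold lower) and *Pax1* of the vertebral column (at least 281-fold lower).

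**Figure D4:**
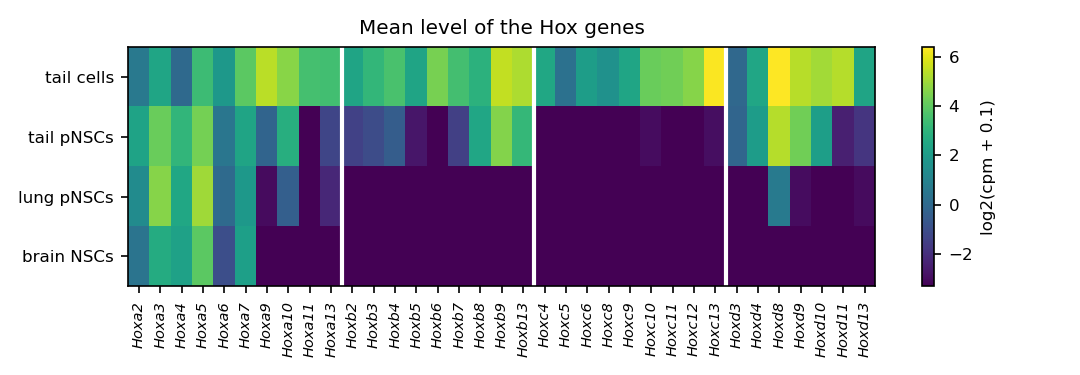
Mean level of tested *Hox* genes in tail cells, tail pNSCs, lung pNSCs and brain NSCs (colour, log2 of cpm with 0.1 added; 2 samples a group), ordered by cluster and number. Tail pNSCs show *Hoxa2* to *Hoxa7*, as lung pNSCs and brain NSCs do, separate genes of *Hoxb* and *Hoxd* that brain NSCs lack, and a nearly empty *Hoxc* cluster.

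Several gene families showed an exchange of members between the groups. Of the cadherins, *Cdh1* of epithelia (ratio 3516-fold, 95% interval 1203 to 17050), *Cdh3* (at least 735-fold lower), *Cdh5* and *Cdh11* of mesenchyme (-5.39, SE 0.0616) fell, and *Cdh2*, N-cadherin (4.10, SE 0.0498), *Cdh4* (4.68, SE 0.0532), *Cdh20* (7.66, SE 0.112), *Cdh22* (7.14, SE 0.209), *Cdh10* (4.62, SE 0.165) and *Cdh6* (1.42, SE 0.0660) rose. Of the intermediate filaments, *Nes* (4.59, SE 0.0363), *Ina* and *Nefm* (2.06, SE 0.262) rose with the lamin *Lmnb1* (1.77, SE 0.0360), and 12 fell, among them *Lmna*, lamin A/C, from 765 and 722 to 31.5 and 30.4 cpm (-4.59, SE 0.0436). In the fatty acid and retinoid binding family *Fabp7* was the member that rose and 8 fell, including *Crabp1* (ratio 1857-fold, 95% interval 333 to 73400). *Tubb2b*, the tubulin of neural progenitors, rose (4.59, SE 0.0432) and *Tuba4a* fell (ratio 2693-fold, 95% interval 745 to 22250). The S100 genes were lower in 12 of 14 cases and the annexins in 9 of 10. *S100a3*, a protein of the hair cuticle, was at least 2893-fold lower. *S100a6* had 205 and 221 cpm in tail cells and no counts in tail pNSCs (at least 1389-fold lower), and *Anxa2* went from 579.8 and 583 to 29.8 and 30.2 cpm (-4.27, SE 0.0444), and *Anxa8* had a ratio of 3946-fold (95% interval 1350 to 19140). *Anxa6* alone among the annexins had a positive value (0.72, SE 0.0342), under the fold limit.

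**Figure D5:**
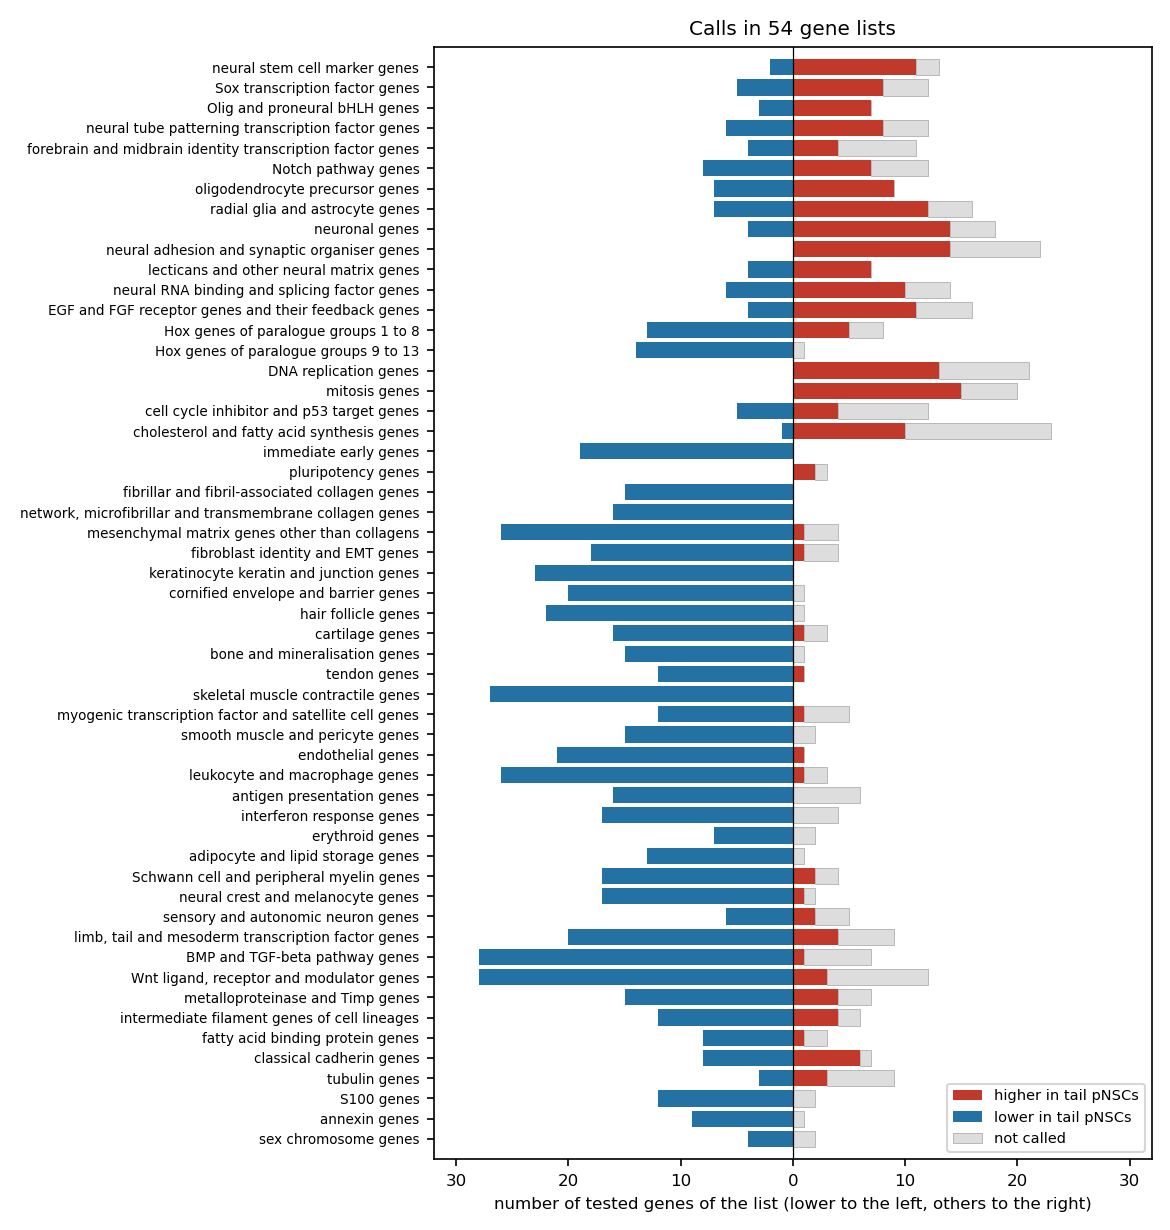
Number of tested genes in each of 54 lists that were higher (red, to the right) or lower (blue, to the left) in tail pNSCs, with those not called added in grey to the right. Most neural lists at the top have members on both sides, the neural adhesion list having none lower. The tissue lists further down lie almost entirely on the left. Some family lists near the bottom, such as cadherins and tubulins, have members on both sides.

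Genes that fell lay side by side on the chromosomes in many places. Runs of at least 8 neighbouring tested genes that were all lower numbered 27, with 339 genes, and there was no such run of genes that were higher. The longest, of 43 genes on chromosome 11 (99232761 to 100261029), is the cluster of type I keratins and keratin-associated proteins from *Krt222* to *Krt17*, which includes *Krt25* and *Krt31*. A run of 24 genes on chromosome 15 ending at *Krt18* holds the type II keratins, one of 16 on chromosome 3 the cornified envelope genes from *Prr9* to *S100a11*, and one of 10 on chromosome 15 the *Hoxc* genes. With 32.6% of genes lower and gene families lying side by side, such runs are a description of where the lost genes are.

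The lung comparison of the same experiment, pNSCs from adult Nes-GFP lungs against lung cells, shares no sample with that of the tail. Of the 2389 genes that rose in tail pNSCs 1630 also rose in lung pNSCs, where 20.2% of genes did, and of the 5527 that fell 4189 also fell, where 34.9% did. The effects were opposite for 155 and 257 genes. The difference between the effects, tested as an interaction in the same fit, was called for 5199 genes (30.7%), 2444 of them with the tail value above the lung value (14.4%) and 2755 below (16.3%). The *Hox* genes were one difference. Of 15 posterior *Hox* genes 14 fell in the tail, and in the lung, whose cells lacked most of them, 1 fell and 1 rose. For *Hoxa2* to *Hoxa5*, which rose in the tail, the difference was called in all 4 with the higher value in the tail, and *Hoxa2* (-1.58, SE 0.206) and *Hoxa5* (-1.29, SE 0.0682) fell in the lung.

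Forebrain factors showed the reverse. Of the 15 tested, 14 rose in lung pNSCs against 4 in tail pNSCs, and for 9 the difference itself was called, each with the higher fold change in the lung. *Zic1*, which fell in the tail, went in the lung from no counts to 88.4 and 88.3 cpm. *Nkx6-1* had no counts in lung pNSCs. The genes shared by both kinds of pNSC differed in size of effect as well: *Nes* (1.48, SE 0.0309 in the lung), *Mlc1* (3.64, SE 0.0412) and *Bcan* (7.76, SE 0.0529) rose less in the lung, with differences of 3.11 (SE 0.0468), 5.72 (SE 0.145) and 1.93 (SE 0.190). *Sox8* (9.89, SE 0.0963) and *Ptprz1* (9.21, SE 0.0450) rose more there, with differences of -6.96 (SE 0.175) and -3.10 (SE 0.0713). These are differences between fold changes and not between levels. *Bcan*, which rose less in the lung, had 1313 and 1308 cpm in lung pNSCs against 794 and 805 cpm in tail pNSCs. It stood at 6.38 and 5.62 cpm in lung cells and at 0.959 and 0.964 cpm in tail cells. For *Pax6*, *Hes5* and *Ncan* the difference was not called, at -0.86 (SE 0.740), 0.48 (SE 0.867) and 0.18 (SE 0.619). That of *Sox2* was not called either, but at 0.96 (SE 0.112) it was many times its SE and lay just under the fold limit.

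Tail cells and lung cells differed in how many transcripts of dividing cells they held, with tissue and age not told apart. All 21 S phase and all 20 M phase genes rose in the lung, and for every one of them the difference was called, with the larger fold change in the lung. *Mki67* had 46.6 and 49.4 cpm in lung cells and 825 and 821 cpm in lung pNSCs, against 476 and 487 and 939 and 912 cpm in the tail. Cartilage and hair were hardly measured in lung cells. *Col2a1* had 0.105 and 0.0605 cpm and *Acan* 0.0523 and 0 cpm in lung cells, and of 23 hair genes 4 fell in the lung against 22 in the tail. Antigen presentation fell further in the lung, where all 22 genes were lower and the difference was called for 19. *Lrp2*, megalin, a receptor of neuroepithelium and of lung and kidney epithelium, moved in opposite directions, from 0.0564 and 0.386 to 77.6 and 68.5 cpm in the tail (8.39, SE 0.168) and from 156 and 156 to 9.33 and 10.3 cpm in the lung (-3.998, SE 0.0704).

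The sexes of the animals behind the samples are not given in the labels. *Xist*, which is made by the inactive X chromosome, had 1508 and 1436 cpm in the tail pNSC samples and 864 and 883 cpm in the tail cell samples (0.75, SE 0.0278), and the Y-linked genes *Ddx3y* (-2.54, SE 0.107), *Eif2s3y* (-3.84, SE 0.156), *Kdm5d* (-2.12, SE 0.200) and *Uty* (-3.09, SE 0.227) fell, with *Ddx3y* at 8.79 and 8.36 cpm in tail pNSCs against 51.6 and 48.1 cpm in tail cells. Both kinds of transcript were thus present in both groups, in different proportions.

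Reads of overlapping genes cannot be assigned with certainty, since whether counting used the strand is not given in the sources used here. An overlap with another annotated gene was found for 155 of 332 named genes that were checked, predicted and small RNA genes included, 129 of them on the other strand and 65 on the same strand. Examples are *Xist*, *Dlx1*, *Egfr*, *Emx2*, *Erbb2*, *Zic1* and the pair *Col4a1* and *Col4a2* on the other strand and *Hoxa4*, *Hoxa5*, *Hoxa6*, *Hoxd4* and *Fgfr2* on the same strand. The keratins, keratin-associated proteins, H2 genes and globins have near copies among which reads can be divided, and their values are uncertain to that degree.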

How the data were processed

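RNA-seq counts of 28244 genes per sample were used as deposited. Per the submitters' processing notes the authors used HISAT2, Cufflinks, HTSeq and the GRCm38 build. Whether strand was used in counting is not given in the sources used here. Samples were grouped by their labels. The 10 samples of the experiment (tail pNSCs, tail cells, lung pNSCs, lung cells and brain NSCs, 2 each) were fitted together in edgeR 4.0.16 (R 4.3.3) after filterByExpr (minimum count 10, minimum total 15) and TMM scaling, with the quasi-likelihood test and Benjamini-Hochberg adjustment over 16948 genes. The difference between tail and lung effects was an interaction term. DESeq2 1.42.0 and limma 3.58.1 (voom) were alternatives, together with other scalings, filters, sample sets, fold limits, a replicate block and leaving out each replicate. The fit was tested on simulated data first. Intervals and floors of 3 counts cover counting error only. Gene coordinates are those of GENCODE M21 and promoter sequences those of RefSeq. Figures were drawn with matplotlib 3.10.9. Tables were handled with pandas 2.3.3 in Python 3.11.15.

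The comparison, the 54 gene lists and the tests were chosen with earlier results of these data known. Named genes are members of these lists, the 15 largest rises and falls with no overlap and a mean of at least 50 cpm in the higher group, the 10 most abundant genes of each group, and the 8 largest differences in each direction from lung with a mean of at least 50 cpm in one of the 4 groups. A few genes selected in this way are left out of the text. Imprinted genes and runs of neighbouring genes were added after their values were seen. Promoter CpG content was not compared between called and uncalled genes, since only 77.1% of tested genes matched a promoter in the table used here.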

Additional observations from a re-analysis of the deposited data

Results flagged for a closer look

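The effect in tail, tail pNSCs against tail cells, and that in lung, lung pNSCs against lung cells, differed in 5199 of 16948 tested genes (30.7%) by the interaction of edgeR's quasi-likelihood fit, at an adjusted p under 0.05 and a log2 difference of at least 1. The tail effect was above the lung effect in 2444 and below it in 2755. The samples of the effects are separate, 2 in each of 4 groups. The lung lines came from adult mice and the tail samples from newborn ones, so that tissue and age cannot be told apart. The genes below are the 16 with the largest differences named by the rule and the 34 genes of the text that were called in opposite directions in the tissues, 41 genes in all since some are in both. Each value is the log2 fold change in tail minus that in lung. Where a group has no counts, this difference rests on a prior count and is no bound.

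The largest positive differences belonged to genes of the lung itself, which fell in lung and, apart from *Lrp2*, stood below 1 cpm in each tail sample. They were *Sftpc*, a surfactant protein of alveolar cells (17.97), *Cckar* (17.01), *Hc*, complement component C5 (14.82), *Arhgef38* (14.19), the lung chemokine *Cxcl15* (13.09), *Scgb3a1* of airway secretory cells (13.002), the water channel *Aqp5* (12.44) and the endocytic receptor *Lrp2* (12.39). *Lrp2* had 77.6 and 68.5 cpm in tail pNSCs and 0.0564 and 0.386 cpm in tail cells. *Sftpc* had 10318 and 10329 cpm in lung cells and 0.621 and 0.707 cpm in tail cells.

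The largest negative differences joined genes of cartilage and hair with genes of the dorsal neural tube. *Col2a1* (-19.61), *Col9a1* (-20.68), *Col9a2* (-17.72) and *Acan* (-18.24) of cartilage, *Krt27* (-19.65) and *Krtap7-1* (-18.22) of hair and the neural crest factor *Tfap2b* (-18.07) were abundant in tail cells and below 4 cpm in each lung sample. *Col11a1* (-17.27) fell in tail and rose in lung. *Zic1* (-24.41), a zinc finger factor of the dorsal neural tube, stood out by its level in lung pNSCs, 88.4 and 88.3 cpm, with no counts in tail pNSCs or lung cells and 11.3 and 9.90 cpm in tail cells. *Pax3* (-20.59), another dorsal factor, had 22.9 and 20.2 cpm in lung pNSCs, none in tail pNSCs or lung cells, and 3.50 and 2.64 cpm in tail cells.

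Other patterning genes also went opposite ways. *Nkx6-1* (10.13), a factor of the ventral neural tube, rose to 68.1 and 70.5 cpm in tail pNSCs and was at 0 in lung pNSCs. In lung cells it was already near the detection limit, at 0.261 and 0.0605 cpm, so that its lung fall (-4.75, SE 1.69) rests on a few counts. *Meis2* (3.65), *Hoxa2* (3.38) and *Hoxa5* (2.32) rose in tail and fell in lung. *Hoxd8* (-2.43), *Hoxa10* (-8.64), *En1* (-13.29), *Msx2* (-16.31), *Foxd3* (-12.83), *Twist1* (-10.08), *T* (-6.18), *Dlx1* (-8.99) and *Dlx2* (-10.39) fell in tail and rose in lung, from low levels in lung cells. Their levels in lung pNSCs were low as well. *En1* was the highest of them there, at 5.85 and 5.11 cpm, and *T* the lowest, at 0.179 and 0.421 cpm, near the detection limit. *Foxd3* had 0.983 and 0.527 cpm and *Dlx2* 0.715 and 0.685 cpm. *Hoxa10* had 0.715 and 0.632 cpm in lung pNSCs against 6.02 and 7.31 cpm in tail pNSCs.

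Genes of glia, matrix and muscle made up the rest. *Gfap* (-4.40), *S100b* (-8.28) and the proteoglycan genes *Cspg4* (-5.01) and *Vcan* (-5.52) fell in tail and rose in lung, as did *Bmp7* (-6.39) and the myosin gene *Myh8* (-7.38). The imprinted genes *Dlk1* (-9.61) and *Zim1* (-5.89) did so as well. *Fbln2* (4.47), a matrix glycoprotein, and the metalloprotease *Adam19* (3.11) rose in tail and fell in lung. *Fbln2* had 1763 and 1816 cpm in tail pNSCs and 10.9 and 10.9 cpm in lung pNSCs.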

How the results depend on the processing

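With 2 samples a group, the spread rests mostly on that shared across genes, and depth limits statements on genes near 3 counts. The counts of called genes stayed within 1.5 times of 2389 higher, 5527 lower and 7916 in all, and of 5199 for the difference from lung, under DESeq2, limma-voom, size factor, upper-quartile and library-size scaling, no filter, only the 4 samples, all 28 samples and glmTreat. With library size only, 3070 were higher and 5162 lower (37.29% of calls higher, a median shift of 0.19). Centring on the median gave 4842 higher. Without a fold limit 6251 were higher and 14042 were called in all, and the difference from lung was called in 10445 (4788 above, 5657 below). At a log2 change of at least 2 there were 1005 higher, and 3068 differences (1427 above, 1641 below). The stricter filter, which tested 12208 genes, left 3113 lower and 4775 in all. Leaving out 1 sample at a time gave 2310 to 2416 higher, 5371 to 5493 lower and 4924 to 5124 differences. Replicate numbers did not pair the samples (correlation of replicate differences 0.00791 over 11714 genes), and with a replicate block 2368 were higher, 5453 lower and 5114 differed from lung. Of 323 named genes with a fold, the call and direction of each were kept under the replicate block, limma-voom and no filter, and of 110 list counts each stayed within 1.5 times under limma-voom, size factors and the block, 98 with the median and 87 with the stricter filter. Genes near 0 changed sign, and for these the cause was not tested beyond the shift that a scaling makes in all genes. *Eef1a1* turned to -0.0516 (DESeq2), -0.0517 (its size factors), -0.0912 (stricter filter) and -0.0247 (4 samples), and ranged from -0.0180 to 0.0259 with 1 sample left out (-0.0066 without tail cells replicate 1). *Notch2* became 0.0210 (upper quartile), 0.165 (library size), 0.521 (median) and 0.0565 (28 samples), *Notch1* 0.0507 and 0.407 (library size, median), *Notch3* 0.111, 0.467 and 0.0028 (library size, median, 28 samples) and *Sox5* 0.0745 and 0.430 (library size, median). Under the median *Axin2* was 0.196, *Eef2* 0.282, *Hoxb8* 0.0515, *Hoxd4* 0.167 and *Zeb2* 0.348. Without tail pNSC replicate 2 *Dcx* was 0.0762. Some calls rested on 1 sample: *Dcx* was called at -2.27 without tail pNSC replicate 1, *En2* was not called without tail pNSC replicate 1 (1.04) or tail cells replicate 1 (1.78), *Nanog* without tail pNSC replicate 2 (1.40) or tail cells replicate 1 (1.13), *Hoxa5* without tail pNSC replicate 2 (0.98) or tail cells replicate 2 (0.89), and *Gfap* without tail cells replicate 2 (-1.58). Other calls near the limit were lost in some settings: *B2m* (-0.86, -0.51, -0.97) and *Hoxd9* (-0.87, -0.51, -0.98) with library size only, the median and all 28 samples, *Hoxd8* with library size (-0.895) and the median (-0.54), and with the median *Bmp7* (-0.95), *Erbb2* (-0.96), *Hes1* (-0.70), *Hoxa6* (-0.88) and *Klf6* (-0.96). Of these *B2m*, *Hoxa6*, *Hoxd8* and *Hoxd9* were also not called by glmTreat, and neither was *Nanog*, which DESeq2 did not call either (1.88). Shares of counts by TMM-scaled totals were 0.967 to 1.12 times those of raw counts.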

Other observations

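Imprinted genes, which are expressed from the copy of one parent, are, apart from *Cdkn1c*, not in the gene lists of the report, and they were looked at after the large changes of some of them had been seen. A list of 31 imprinted genes was written down from textbook knowledge, and all of its members passed the filter on low counts. Of these, 18 were lower and 5 higher in tail pNSCs, against 32.6% and 14.1% of all tested genes, and no scaling changed these counts. Many of them act on growth before birth.

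*H19*, a long noncoding RNA of fetal and newborn tissue, had 3351 and 3286 cpm in tail cells and 0.108 and 0 cpm in tail pNSCs, which is 2 counts in replicate 1 and none in replicate 2, a ratio of 65150-fold (95% interval 18040 to 538000). Its neighbour *Igf2*, the fetal growth factor, had 146 and 146 cpm in tail cells and 0.0542 and 0.144 cpm in tail pNSCs (-10.39). Brain NSCs held 0.0481 and 0.0462 cpm of *H19* and no counts of *Igf2*. Lung cells, the other tissue of the experiment, held far less of both, 4.71 and 3.51 cpm of *H19* and 0.314 and 0.544 cpm of *Igf2*. The paper's Nes-GFP lungs were adult and the tails newborn, so that here and below tissue and age cannot be told apart.

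A run of neighbouring genes on chromosome 12 fell together. *Meg3* and *Rian*, noncoding RNAs of this region, had 536 and 519 cpm and 319.7 and 333 cpm in tail cells. Neither had a count in tail pNSCs, brain NSCs or lung pNSCs, and they were at least 3437-fold and at least 2127-fold lower in tail pNSCs. *Mirg*, *Rtl1* and *Dio3* of the same region also had no counts in these 3 kinds of neural stem cell line. *Dlk1*, the coding gene at the start of the region and a ligand-like protein of the Notch family, had 695 and 684 cpm in tail cells and was not at 0 in tail pNSCs, with 3.20 and 2.69 cpm (-7.88). In lung it went the other way, from 0.418 and 0.242 cpm in lung cells to 1.30 and 0.948 cpm in lung pNSCs (1.74).

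The growth regulators *Plagl1*, a zinc finger factor (-5.94), and *Grb10*, an adaptor of the insulin receptor (-5.55), fell as well, as did the amino acid transporter *Slc38a4* (-8.56), *Magel2* (-5.50) and *Igf2r*, the receptor that clears IGF2 (-2.22). The 5 genes that rose were *Peg10*, *Mest*, *Nnat*, *Peg12* and *Snrpn*. *Mest*, a hydrolase of mesoderm, was the most abundant of them in tail pNSCs, with 1983 and 2086 cpm against 487 and 503 cpm in tail cells (2.04). *Nnat*, neuronatin, went from 9.82 and 12.8 to 408 and 422 cpm (5.21), and *Peg12* from 7.11 and 7.07 to 118 and 116 cpm (4.04). *Peg10*, a gene derived from a retrotransposon, rose from 120.4 and 119.8 to 537 and 535 cpm (2.16). *Snrpn*, a splicing protein of neurons, rose from 3.61 and 3.28 to 17.7 and 14.7 cpm (2.22). *Peg3* was abundant in both groups, with 449 and 444 cpm in tail pNSCs and 819.6 and 793 cpm in tail cells. Its log2 fold change of -0.85 did not reach the fold limit, whereas in lung it rose by 2.45, a difference of -3.31 (SE 0.0535) that was called. *Mest*, *Nnat*, *Igf2r* and *Snrpn* overlap *Copg2*, *Blcap*, *Airn* and *Snurf*, so that reads may be shared. Parental alleles were not separated in these counts.

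Outside the keratin clusters, genes of proteases and their inhibitors also fell as runs of neighbours. Among runs of at least 8 neighbouring tested genes that were all lower there were 27, and there were 0 runs of this length in which all were higher. They included 11 genes on chromosome 7 (43695209 to 44116922 in GRCm38) with the kallikreins, proteases of the skin surface, 13 on chromosome 1 (106861173 to 111864918) with serpin genes of clade B and 13 on chromosome 12 (103614786 to 104414329) with serpin genes of clade A. Another 11 on chromosome 3 (90511034 to 90741517) held S100 calcium-binding protein genes. These runs were picked out after the values had been seen, and chance was not assessed for them.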
